A study of Oryza sativa Japonica Group with 20 samples.

Results

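Trimethylation of histone H3 at lysine 27 (H3K27me3) is a mark of silenced chromatin that the Polycomb repressive complex 2 lays down and that plants use to keep developmental genes off. Gibberellin (GA) is a growth hormone, and DELLA proteins, of which rice has SLR1, hold back the response to it until GA triggers their destruction. Mapping H3K27me3 with and without added GA, and in plants without SLR1, addresses where the mark depends on this pathway. The windows described here carried H3K27me3 peaks in both libraries labelled control and none in the libraries labelled GA or slr1.

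The study used seedlings of Oryza sativa, Japonica group. Chromatin was immunoprecipitated with 1 H3K27me3 antibody in 6 libraries, 2 per group. The GA-labelled group was wild type that took up 100 uM GA through the roots, for 6 h per the series' design text. The slr1 group was a SLR1 knockout with no treatment in its labels. The control-labelled group was wild type with treatment given as control. The design text gives an age of 12 days for mutant seedlings and their wild type, and no label gives the age library by library. No H3K27me3 library is labelled as the wild type of the slr1 seedlings. Where slr1 is set against the other groups, genotype therefore cannot be told apart from a difference in experiment or age. The kind of slr1 mutation, and whether replicates came from separate plants or pools, are not stated. Whole seedlings were used, so a mark in fewer cells and a weaker mark in every cell cannot be told apart.

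The names of the peaks go against the labels. Every peak in the 2 files labelled control is named with the tag 6h, every peak in the 2 files labelled GA with the tag CK, which also stands in the titles of the control-labelled libraries, and every peak in the slr1 files with the tag j3. By the labels, the windows were marked in control seedlings and lacked a peak after 6 h of GA and in slr1. By the peak names, they were marked in the 6 h seedlings and lacked a peak in untreated seedlings and in the libraries tagged j3. The files do not say which reading holds, so the label names are used below and each statement that sets GA-labelled against control-labelled libraries turns round under the other reading. The tag j3 does not name slr1, so the slr1 libraries are identified by their labels alone and are called slr1 under both readings.

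The windows were chosen by peak coverage: chromosomes 1 to 12 were cut into 1000 bp windows from position 0, and a window was kept when peaks covered at least 200 bp of it in both control-labelled libraries and 0 bp in the other 4. This gave 264 windows, of 42449 that any library covered by at least 200 bp, and 0.838% of the 31502 windows marked in both control-labelled libraries. The same rule turned to the other labels gave 56 windows marked in the GA-labelled libraries alone, 0.198% of the 28298 marked in both of them, and 319 in the slr1 libraries alone, 1.16% of 27557. These counts come from the values that made the choice and were not tested. A count of this kind can only grow when a library is dropped from the rule, and it reached 838 without control-labelled replicate 1, 565 without control-labelled replicate 2, 502 without GA-labelled replicate 2 and 546 without slr1 replicate 1. It was 376 without GA-labelled replicate 1 and 282 without slr1 replicate 2. The other sets moved further: the GA-labelled set reached 548 windows without GA-labelled replicate 1, and the slr1 set 2286 without slr1 replicate 2. The order of the sets also depended on the limits. With a −log10 q of at least 3 asked of peaks in all libraries, 438 windows were marked in the control-labelled libraries alone and 177 in slr1 alone, and with a fold enrichment of at least 3 the counts were 527 and 138, so the slr1 set was then the smaller of these.

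The peak lists differed in size and height. On chromosomes 1 to 12, peaks covered 22.4 and 24.1 Mb in the GA-labelled libraries, 27.7 and 21.3 Mb in the slr1 libraries, and 25.1 and 27.1 Mb in the control-labelled libraries. The number of peaks ran from 11693 in slr1 replicate 2 to 13636 in GA-labelled replicate 2. Over the windows that all 6 libraries marked, which the choice of members left aside, the authors' median fold enrichment was 3.67 and 4.10 in the GA-labelled libraries, 4.05 and 3.42 in slr1, and 4.23 and 4.47 in the control-labelled libraries. The control-labelled libraries thus had the highest values over shared windows as well, and the part of this in the result was not tested. When each library was cut to its 11693 peaks of highest −log10 q, 228 windows met the rule, of which 104 were among the 264. Read numbers behind the peaks are unknown.

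Windows marked only in control-labelled libraries were an end point of a graded pattern. Of the 31502 windows marked in both control-labelled libraries, 26387 (83.8%) had some peak coverage in all 4 other libraries, 2694 in 3 of them, 1507 in 2 and 650 in 1. Among the 650 windows with coverage in a single other library, that library was GA-labelled replicate 1 in 112, GA-labelled replicate 2 in 238, slr1 replicate 1 in 282 and slr1 replicate 2 in 18. Both GA-labelled libraries were at 0 bp in 839 windows, of which 275 had coverage in both slr1 libraries, 300 in one of them and 264 in neither. Both slr1 libraries were at 0 bp in 1232 windows, of which 618 had coverage in both GA-labelled libraries, 350 in one and the same 264 in neither.

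The marked stretches were short, and most windows had no adjacent window of the same set. Adjacent windows joined into 254 regions, of which 245 were a single window, 8 were 2 windows and 1 was 3 windows long. Peaks covered a median of 344.5 bp of a window in control-labelled replicate 1 (200 to 1000 bp) and 367 bp in replicate 2 (204 to 1000 bp), and the whole window in both libraries in 3 of 264. Just inside the limit, the 5 windows nearest to it had 200 to 206 bp in the library that covered less, and just outside it the 5 nearest fell short by a few bases, with 194 bp in the lowest. On this measure 76 windows lay inside the limit by less than 50 bp and 30 windows outside it by no more than 50 bp. The shortest listed peaks were 218 and 215 bp in control-labelled replicates 1 and 2. Coverage under 200 bp is therefore always a part of a peak cut by a window edge, so these counts are not of like kind. A further 208 windows met the limit in both control-labelled libraries and had some coverage in at least 1 of the other 4, with under 200 bp in each of them.

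The peaks over the windows were weak. The fold enrichment and −log10 q that the authors' files give per peak had medians of 2.24 and 2.10 over the windows in control-labelled replicate 1, and of 2.29 and 2.33 in replicate 2. Over all windows marked in both control-labelled libraries the median fold enrichment was 3.97 and 4.17, and over all peaks the median −log10 q was 6.11 and 6.26. The fold enrichment lay under its own library's median peak (3.15 and 3.18) in 239 windows in replicate 1 and 231 in replicate 2. A −log10 q under 2 was found over 125 and 103 windows, where the lowest values in the lists were 1.01 in both libraries. The share of all peaks under 2 was not computed. The peaks were narrow too, with a median width of 458 and 491 bp against 1026 and 1073.5 bp for all peaks. Values over the windows are per window, and those of all peaks are per peak. The choice of windows used these same peak lists, so the low height and width are a description and were not tested.

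Both replicates drew the marked stretch at a similar place in most windows. In all 264 windows the covering peaks of the replicates overlapped each other. Their starts lay a median of 70 bp apart and their ends 62 bp apart, with upper quartiles of 180.5 and 147.5 bp. Outliers reached 11853 and 8907 bp where one replicate held a long domain and the other a short peak. The fold enrichments of the replicates were within 1.2 times of each other in 231 windows and over 1.5 times apart in 9, and in all 9 a covering peak also met a peak of another library. The rule asks for both replicates, so this closeness is a description. The fold enrichments also lay in a narrow range. Their lower and upper quartiles were 2.06 and 2.55 in replicate 1 and 2.11 and 2.66 in replicate 2. Closeness within 1.2 times was not compared with that of other windows.

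**Figure D1:**
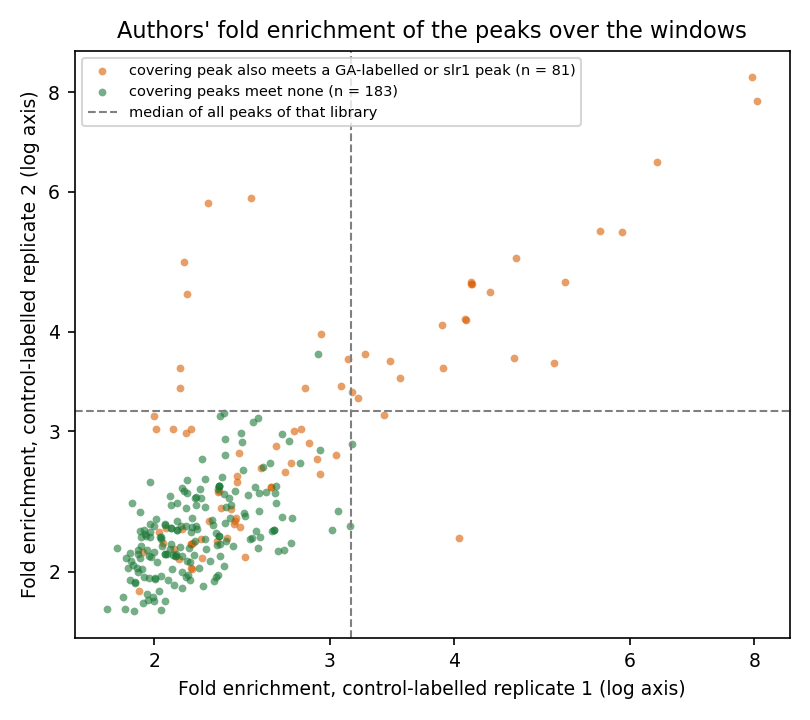
Fold enrichment of the covering peak in control-labelled replicate 1 (x) and replicate 2 (y), both on log axes, for the 264 windows; dashed lines are the median of all peaks in each library (3.15 and 3.18). The 183 windows whose covering peaks meet no GA-labelled or slr1 peak sit at low values, up to 3.16 and 3.75, and the 13 windows at 4 or more in both replicates belong to the 81 others.

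The windows were split by whether their covering peaks met a peak of another library. In 183 of 264 (69.3%) the covering peaks were separate, meeting no GA-labelled or slr1 peak anywhere along their length. In 81 (30.7%) a covering peak ran on into a stretch that at least 1 of the other libraries also marked, in both control-labelled libraries for 56 of them and in a single one for 25. Separate peaks had a median width of 349 and 398 bp in control-labelled replicates 1 and 2, and a median fold enrichment of 2.17 and 2.22. For the 81 windows on shared domains the medians were 1564 and 2094 bp, and the median fold enrichment was 2.50 and 2.90. The split itself favours wide peaks among the 81, because the other libraries have 0 bp in the window and a covering peak can meet theirs only by running out of it. A peak that lay wholly inside its window was thus separate by the rule. The share of separate peaks was not computed over all control-labelled peaks, so the 69.3% has no background.

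The fold enrichment is a value of the whole peak, so for a window at the rim of a long domain it describes mostly the domain outside the window. All 10 windows of highest mean fold enrichment, and all 13 with a value of at least 4 in both replicates, lay on shared domains. The highest was chr6:5387001-5388000, where the control-labelled peaks began at positions 5387700 and 5387642, with a fold enrichment of 7.95 and 8.35. Peaks of the other libraries began just past the window, at 5388153 and 5388110 in the GA-labelled libraries (fold enrichment 6.61 and 8.28) and at 5388078 and 5388151 in slr1 (5.44 and 5.55). All 6 libraries thus held a strong peak here, and what set the window apart was a start 378 to 511 bp further out in the control-labelled libraries.

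Boundaries elsewhere were similar. At chr7:29563001-29564000 the control-labelled peaks were 3565 and 3621 bp wide, with a fold enrichment of 8.05 and 7.79, and reached 343 and 365 bp into the window. The nearest peaks of the other libraries stopped 53 and 283 bp short of it in the GA-labelled libraries and 503 and 530 bp short in slr1. At chr2:29242001-29243000, where the control-labelled values were 6.38 and 6.53, they stopped 39 and 34 bp short in the GA-labelled libraries and 61 and 514 bp short in slr1. Among the 10 windows, the nearest other peak lay 10 to 271 bp away and the farthest of the 4 libraries' nearest peaks 59 to 752 bp away.

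For 54 of the 81 windows the covering peaks met peaks of all 4 other libraries. Those peaks had a median fold enrichment of 3.03 and 3.16 in the GA-labelled libraries and 3.26 and 2.81 in slr1, against 2.99 and 3.46 in the control-labelled libraries. They lay a median of 282 and 306 bp from the window in the GA-labelled libraries and 238 and 479 bp in slr1. The values of both GA-labelled libraries and of slr1 replicate 1 lay between those of the control-labelled replicates, and slr1 replicate 2 lay lowest.

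In 4 windows the covering peak met other libraries' peaks on both sides, as at chr7:1964001-1965000. There peaks covered all 1000 bp in both control-labelled libraries, inside domains of 6228 and 9213 bp with a fold enrichment of 2.62 and 2.55. The nearest GA-labelled peaks lay 47 and 17 bp away and the nearest slr1 peaks 7842 and 1564 bp away. Along the control-labelled domains the GA-labelled libraries held separate peaks, 4 in replicate 1 and 3 in replicate 2, with none over the window.

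**Figure D2:**
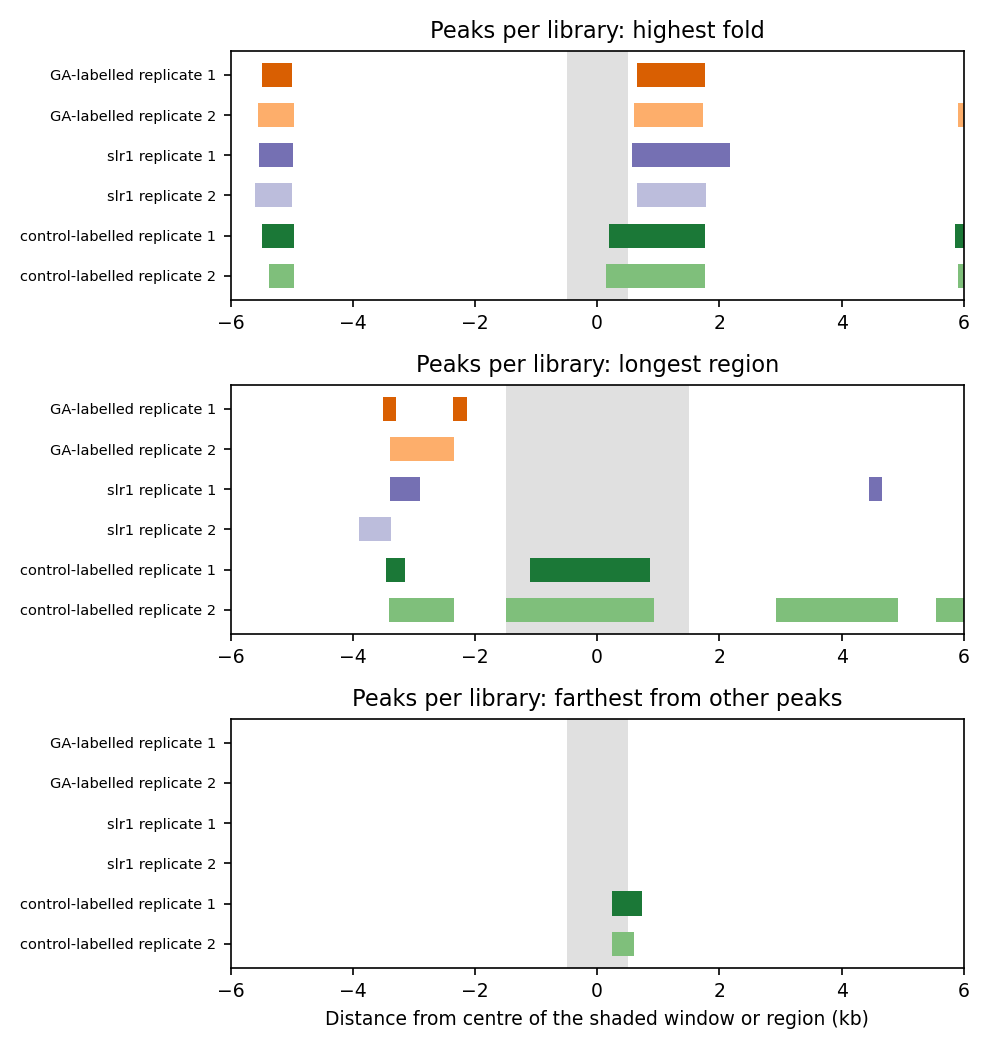
Peaks of the 6 libraries (bars, 1 row per library) within 6 kb of the centre of the window of highest fold enrichment (chromosome 6), the longest region (chromosome 7) and the region farthest from other libraries' peaks (chromosome 9); the window or region is shaded. At the first, all libraries hold a peak to the right and those of the control-labelled libraries start 453 and 511 bp before that of GA-labelled replicate 1; at the third, no other library has a peak in view.

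Separate peaks made up 7 of the 9 regions longer than a single window, against 175 of all 254 regions (68.9%). They also made up all of the 10 most remote regions. The ranking by distance fixed this outcome. No other library's peak came nearer than 46100 bp to these regions, and the widest covering peak in the whole set was 11986 bp. The region of 3 windows, chr7:1950001-1953000, was covered by 1 peak of 1975 bp (fold enrichment 2.32) in control-labelled replicate 1 and 1 of 2410 bp (2.56) in replicate 2. The nearest peaks of the other libraries were 623 and 847 bp away in the GA-labelled libraries and 1397 and 1882 bp away in slr1. At chr7:7111001-7113000 the control-labelled peaks spanned 1370 and 1285 bp (2.11 and 2.26), and no GA-labelled or slr1 peak came within 20219 bp. The other 7 regions longer than a single window lay on chromosomes 4, 6, 7, 11 and 12.

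The region farthest from any other library's peak was chr9:8418001-8419000, with control-labelled peaks of 498 and 353 bp and a fold enrichment of 2.16 and 2.07. The nearest GA-labelled peaks were 146680 and 146651 bp away and the nearest slr1 peaks 146643 and 146701 bp away. Next came chr10:10089001-10090000, with no other peak within 90525 bp (2.06 and 2.10), and chr1:32979001-32980000, with none within 84998 bp (1.94 and 2.01). At chr6:10470001-10471000, with none within 82671 bp, peaks covered the whole window in both control-labelled libraries at a fold enrichment of 1.95 and 1.83. Across the 10 most remote regions the −log10 q of the covering peaks was at most 3.30, so each of them lay under the median of its list.

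Distances to the peaks of other libraries varied widely. The nearest peak of any of the 4 other libraries was a median of 1204 bp away and within 1 kb of 124 windows (47.0%), and it was within 5 kb of 181. Among the 183 windows with separate covering peaks it was within 1 kb of 45 (24.6%), and 76 bp away at the nearest. Distances were not computed for other windows, so nearness was not compared with a background. No peak of the 4 lay within 20 kb of 31 windows, and none within 50 kb of 9. By library, a peak lay within 1 kb of 100 and 102 windows in the GA-labelled libraries and of 104 and 66 windows in slr1. The median distance was 2692 and 2544 bp in the GA-labelled libraries and 2579 and 4404 bp in slr1. Slr1 replicate 2, the library with the fewest peaks, stood apart from the other 3, which lay close together.

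**Figure D3:**
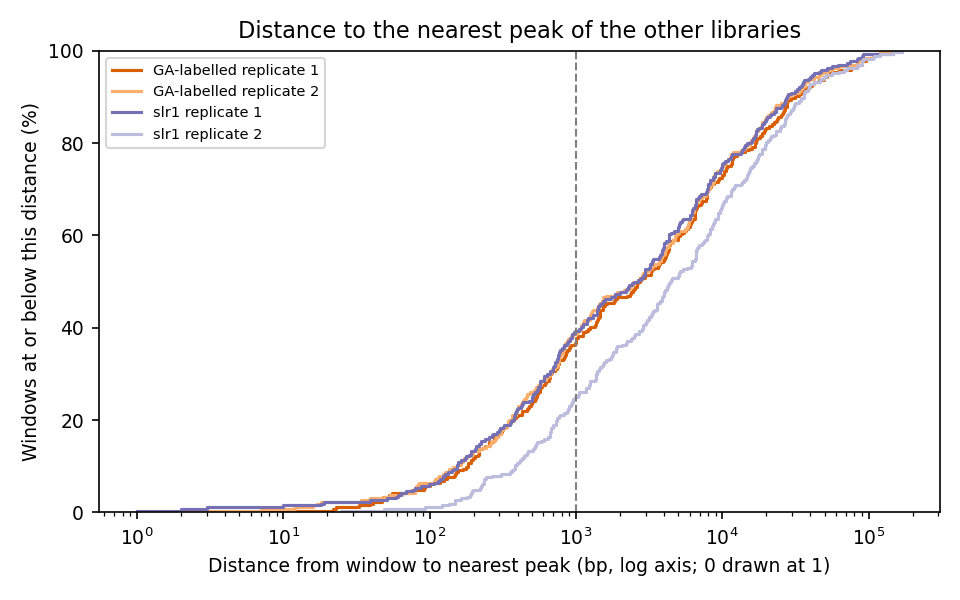
Cumulative share of the 264 windows (y, %) by distance to the nearest peak (x, bp, log axis) in each GA-labelled and slr1 library; the dashed line marks 1 kb. The curves of both GA-labelled libraries and of slr1 replicate 1 run together, with 37.9%, 38.6% and 39.4% of windows within 1 kb, and that of slr1 replicate 2 lies lower, with 66 of 264 windows within 1 kb.

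Peak coverage was also measured around the windows. Between 500 and 2500 bp from the centre, peaks covered 11.6% and 12.4% of positions in the GA-labelled libraries, 14.6% and 8.55% in slr1, and 16.9% and 19.5% in the control-labelled libraries. That stretch begins at the window edge, so the choice of windows shaped it as well. Control-labelled covering peaks could run out into it, whereas peaks of the other libraries could not cross the edge. The gap there is a description and was not tested. Between 5 and 10 kb away the values were 11.1% and 12.0% in the GA-labelled libraries, 12.9% and 9.33% in slr1, and 12.8% and 14.8% in the control-labelled libraries. At that distance both GA-labelled libraries and slr1 replicate 2 lay below both control-labelled libraries. Slr1 replicate 1, the library with the most bases in peaks, lay between them. These shares are not scaled to the size of each peak list.

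**Figure D4:**
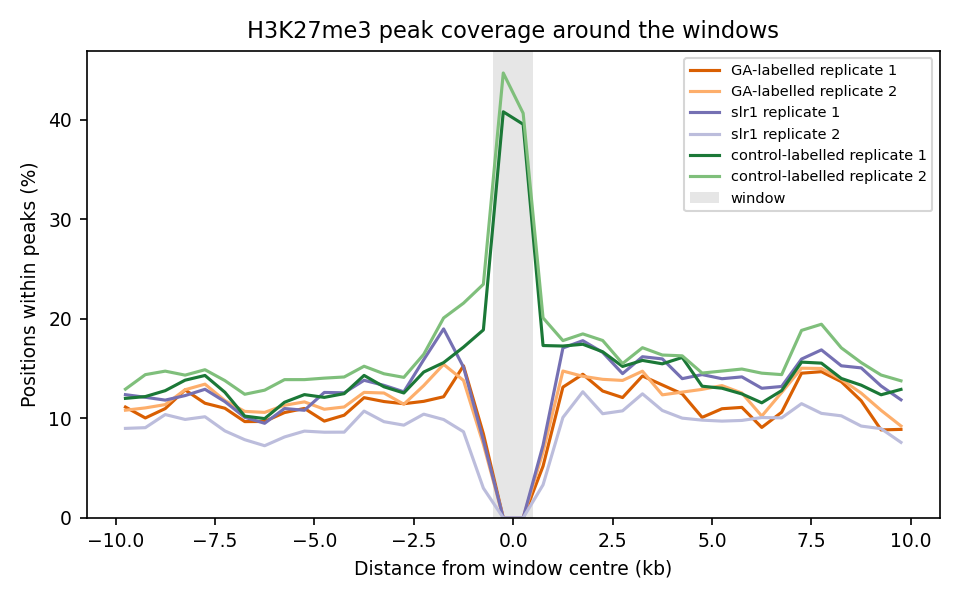
Share of positions within peaks (y, %) in 500 bp steps up to 10 kb from the centre of the 264 windows (x, kb), 1 line per library, window shaded. Inside the window the GA-labelled and slr1 lines are at 0 and the control-labelled lines high, as the choice of windows requires. Next to the window the choice still shapes the lines. Beyond 5 kb the averages run from 9.33% to 14.8%.

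The windows were spread over all 12 chromosomes. Chromosome 1 had most, with 39 windows (14.8% of them, against 12.9% of all windows marked in both control-labelled libraries), followed by chromosome 6 with 31 and chromosomes 7 and 11 with 28 each. As a share of the windows marked in both control-labelled libraries, the count ran from 0.474% on chromosome 5 (11 windows) to 1.18% on chromosome 6. Of the 1 Mb bins with any such window, 118 held 1 and 41 held 2. By number the fullest were chr6:27000001-28000000 with 6 windows in 5 regions and chr7:1000001-2000000 with 6 windows in 4 regions. In these bins both control-labelled libraries marked 229 and 206 windows. The number of marked windows varied between bins, so the counts do not rank the shares. On chromosome 6 the next bin, 28000001 to 29000000, held 4 more, of 67 marked in both control-labelled libraries. Of the 6 windows in the first bin, 4 had separate covering peaks and 2 lay on shared domains. Bins with 4 windows also lay on chromosome 7 (7000001 to 8000000, of 66 marked) and on chromosome 11 (17000001 to 18000000, of 132, and 19000001 to 20000000, of 150).

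**Figure D5:**
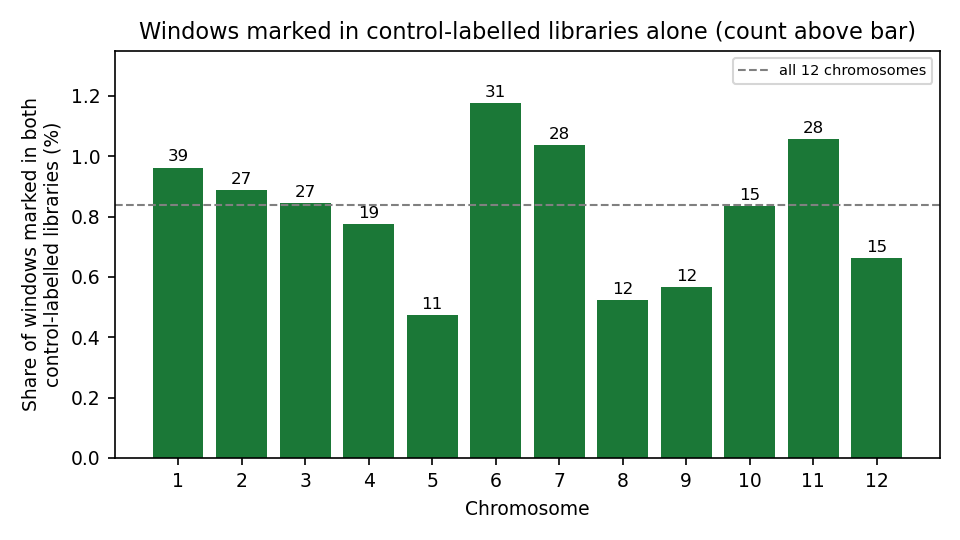
Windows marked in the control-labelled libraries alone, as a share of all windows marked in both of these libraries (y, %), by chromosome (x), with the number of windows above each bar; the dashed line is the share over all chromosomes (0.838%). Shares run from 0.474% on chromosome 5 to 1.18% on chromosome 6.

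Set beside the windows marked in one other group alone, the 264 windows had medians of peak height and width nearer to the GA-labelled set than to the slr1 set. For height in replicate 2 the other sets hardly differed, and distances to other peaks lay nearer to the slr1 set. Medians of fold enrichment were 2.24 and 2.29 over the control-labelled set, 2.28 and 2.396 over the 56 windows of the GA-labelled set, and 2.67 and 2.42 over the 319 windows of the slr1 set. Median peak widths were 458 and 491 bp in the control-labelled set, 413 and 408 bp in the GA-labelled set, and 1845 and 801 bp in the slr1 set. Separate covering peaks made up 69.3% of the control-labelled set, 71.4% of the GA-labelled set and 48.9% of the slr1 set. Regions longer than a single window numbered 9, 0 and 35 in that order, and the longest slr1 region had 5 windows. The nearest peak of another group lay a median of 1204, 2366 and 915 bp away in the same order. It lay within 1 kb of 47.0%, 41.1% and 51.4% of the windows. Each set was chosen by its own libraries' peaks, so these differences were not tested. Genes in the windows were not analysed here, because the deposited gene tables carry locus identifiers without positions.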

How the data were processed

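H3K27me3 peaks of 6 libraries were used as deposited, 1 broad peak list per library, so replicates were not pooled. The submitters' processing notes name Trim Galore 0.6.6, Bowtie2 2.4.4, deepTools 3.5.0 and MACS2 2.2.7.1. The genome build, the background library and the read filters are not stated, and coordinates are those of the files, counted from 1. For each peak the authors deposited a fold enrichment (a ratio over background), a −log10 p and a −log10 q, and a display score that was not used. A weak peak just under the caller's limit is listed as nothing, so 0 bp means no listed peak. Covered bases per window were counted with Python 3.11.15, numpy 2.4.6 and pandas 2.3.3, and the counting was tested on simulated peak lists. A window's fold enrichment and −log10 q are means of its peaks weighted by covered length. Adjacent windows were joined. Regions named are the 10 longest, the 10 farthest from other libraries' peaks, the 10 windows of highest mean fold enrichment, and the fullest 1 Mb bins; the window with peaks on both sides was chosen after its values were seen. The windows and these rules were chosen with earlier results of these data known. No test was run, since the choice of windows used the same peaks. The planned tests of RNA in these windows were not run, because no gene positions in the files' build were at hand. Peaks outside chromosomes 1 to 12 and both input libraries were not used here.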

Additional observations from a re-analysis of the deposited data

How the results depend on the processing

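The results were recomputed under 18 other settings, 17 planned and 1, an equal number of peaks per library, chosen after seeing the data. A count is called moved past 1.5 times, a share outside its exact 95% binomial interval (40.8% to 53.2% within 1 kb, 10.7% to 19.6% on chromosome 1, counting error only), and the median fold enrichment of 2.29 past the SD of 0.0341 between replicate medians. The binomial intervals take windows as independent, although some share a peak, and many settings hold the same windows. They serve as a yardstick and not as a test. No paired analysis was possible because the results come from no test.

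A minimum of 500 bp left 36 windows (34 regions, fold enrichment 2.34), with 3 in the GA-labelled and 101 in the slr1 set. A minimum of 1000 bp left 3 windows (3 regions, 2.44, 33.3% within 1 kb, 0 on chromosome 1), with 0 and 23. At 100 bp the fold enrichment was 2.33. Allowing less than 200 bp in the others gave 472 windows (458 regions, 2.46, 70.3% near) and 100 in the GA-labelled set. Asking for 0 bp in both neighbours left 140 (135 regions, 2.17, 0% near by construction), with 33 and 155. Windows of 500 bp gave 2.42, 56.6% near and 493 in the slr1 set; windows of 2000 bp gave 2.25, 35.8% and 206.

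A −log10 q of at least 3 in all libraries gave 438 windows (2.76, 32.4% near), of which 50 were among the 264, and 177 in the slr1 set. A fold enrichment of at least 3 gave 527 (3.27, 22.8%), of which 25 were, with 35 and 138. So most windows under these limits, which also remove peaks from the other 4 libraries, were different windows, whereas those left at 500 or 1000 bp were all among the 264. The −log10 q limit in control-labelled libraries alone left 50 windows in 50 regions (3.27, 80.0% near, 8% on chromosome 1), all among the 264, with 359 and 589. Equal numbers of peaks gave a fold enrichment of 2.53 and 552 in the slr1 set.

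Without 1 library, windows ran from 282 (without slr1 replicate 2) to 838 (without control-labelled replicate 1), regions from 272 to 789, fold enrichment from 2.19 to 2.34, the GA-labelled set from 60 to 548 and the slr1 set from 354 to 2286, the last without slr1 replicate 2. Other values stayed within their limits.

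Results on RNA in these windows were not computed under any setting, since the gene tables hold no positions. Precision is limited by 2 libraries per group and by an unknown read depth, and a window at 0 bp is one without a listed peak, not one shown to lack the mark.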

Other observations

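The reverse pattern was counted too. Of 24547 windows with at least 200 bp of peaks in all 4 GA-labelled and slr1 libraries, 20 (0.0815%) had 0 bp in both control-labelled libraries. This rule asks for peaks in 4 libraries and not in 2, so the share cannot be set beside the 0.838% of the 264 windows. The control-labelled libraries also had the highest median fold enrichment over windows that all 6 libraries marked (4.23 and 4.47). The 20 windows lay on all 12 chromosomes, with 3 each on chromosomes 9 and 10. Peaks at chr9:6505001-6506000 covered 297 and 756 bp in the GA-labelled libraries, 1000 bp in each slr1 library and 0 bp in the control-labelled libraries. At chr12:19408001-19409000 they covered 220 and 1000 bp in the GA-labelled libraries, 1000 bp in each slr1 library and 0 bp in the control-labelled libraries. By the peak names, these are windows that lacked a peak in the 6 h seedlings alone.

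On sequences outside chromosomes 1 to 12 there were 5 and 4 peaks in the GA-labelled libraries, 5 and 6 in slr1, and 6 in each control-labelled library.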
